A study of Homo sapiens with 8 samples.

Results

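CCN1, CCN2, ANKRD1, AXL, NT5E, FJX1, PTPN14, AMOTL2 and CRIM1 are 9 widely used target genes of the transcriptional co-activators YAP and TAZ. They were followed through 4 lines of H9, an established line of human embryonic stem cells (hESCs). The 9 genes were found by symbol among the 60675 genes of the deposited tables, and all 9 were among the 19499 genes that passed the filter on low counts. They were chosen by earlier results of these same samples, namely their RNA levels in P3 and P4 relative to P1 and P2. The differences of P3 or P4 from P1 and P2 are therefore given for these genes as descriptions, without a test, and tests are given for P4 against P3 and for P2 against P1. The study compared isogenic H9 cells that differed in time in culture, with passage numbers in the 40s (P1), 100s (P2), 200s (P3) and 300s (P4). All 4 lines were untreated and grown without feeder cells in mTeSR1 medium on Matrigel, and the study describes P3 and P4 as carrying a gain of 20q11.21 and a survival trait. Each line gave 2 samples for RNA sequencing. Whether those 2 samples came from different cultures is not stated, so the p-values measure the spread between these samples, which may be technical. Each passage range is represented by 1 line, so a difference between lines and a difference between passage numbers cannot be told apart.

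YAP and its paralogue TAZ (gene WWTR1) shuttle between cytoplasm and nucleus. The Hippo kinases LATS1 and LATS2 phosphorylate them and hold them in the cytoplasm, while nuclear YAP and TAZ bind the TEAD factors, which recognise a short DNA motif, and switch on genes for matrix proteins, receptors and the pathway's own inhibitors. In human pluripotent cells the pathway responds to matrix stiffness and cell density, and it bears on survival after dissociation.

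Depth ranged from 26874899 to 38095600 expected counts per sample, so that 3 counts correspond to 0.0787 to 0.112 CPM (counts scaled to library size). All 10 pluripotency markers examined were above 1 TPM (a level scaled for gene length and library size) in every sample. Replicates 1 of P3 and P4 had 18.4% and 17.2% of counts on mitochondrial genes and replicates 2 had 7.53% and 5.89%, while P1 had 9.84% and 18.5% and P2 6.55% and 6.72%. The RNA comes from whole cultures, so fewer cells of a kind and less RNA per cell cannot be told apart.

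The promoter stretches that hold a TEAD motif are shown because TEAD factors are the route by which YAP and TAZ reach these genes. The motif searched was CATTCC on either strand, in RefSeq windows from 250 bases before to 50 bases after each start (GRCh38.p14), which were given for 7 of the 9 genes. Capitals mark the motif, written as GGAATG where it lies on the other strand, and each run reads 5′ to 3′ on the strand of the gene.
CCN2 (chr6:131951452-131951552, reverse strand): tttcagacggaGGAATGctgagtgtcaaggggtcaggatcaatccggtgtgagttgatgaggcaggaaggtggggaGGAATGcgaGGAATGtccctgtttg
ANKRD1, distal match (chr10:90921290-90921319, reverse strand): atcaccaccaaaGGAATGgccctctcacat
ANKRD1, proximal match (chr10:90921198-90921227, reverse strand): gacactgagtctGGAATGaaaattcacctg
AXL, second start (chr19:41226531-41226560, forward strand): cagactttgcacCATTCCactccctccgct
PTPN14 (chr1:214551785-214551814, reverse strand): cctcccgggccgCATTCCtccccgcccccg
AMOTL2, second start (chr3:134374499-134374528, reverse strand): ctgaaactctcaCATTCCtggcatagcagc

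The CCN2 stretch held 3 matches, whose first bases lie 169, 104 and 95 bases before the start. Of all 35116 RefSeq windows, 14% held at least 1 match and 0.128% held 3 or more. ANKRD1 had 2 matches, 220 and 128 bases before the start, a number reached by 1.37% of windows, and the nearer match falls in an exon of the GENCODE model of ANKRD1. The single matches of AXL, PTPN14 and AMOTL2 began 212, 200 and 69 bases before their starts. The windows of NT5E and FJX1 and the first windows of AXL and AMOTL2 held no match. The AP-1 motif TGANTCA, which shares no position with a TEAD match here, was found once, 195 bases before the ANKRD1 start, and in 7.71% of all windows. A match of letters is not a binding site, and binding was not measured in the files used here.

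**Figure D1:**
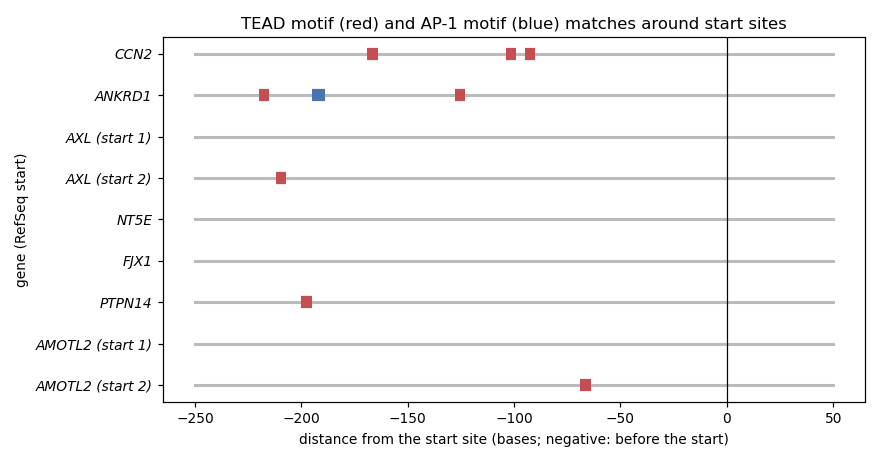
Matches of the TEAD motif (red) and the AP-1 motif (blue) in the 9 RefSeq windows of 7 target genes, by distance from the start site in bases on the horizontal axis; each grey line is 1 window. CCN2 shows 3 TEAD matches, ANKRD1 2, and AXL, PTPN14 and AMOTL2 1 each.

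CCN1 and CCN2 encode secreted matricellular proteins that bind integrins, and they were the most abundant of the 9 genes in every line. CCN1 (ENSG00000142871, chromosome 1, 85580761 to 85583962, GRCh38) had 235 and 253 TPM in replicates 1 and 2 of P1, 180.3 and 189 TPM in P2, 32.8 and 97.4 TPM in P3, and 56.0 and 177 TPM in P4 hESCs. Every P3 and P4 sample lay below every P1 and P2 sample, although replicate 2 of P4 came close to the lowest P2 sample. Within P3 and within P4 the 2 samples of CCN1 lay far apart: replicate 2 held 2.06 and 2.56 times the CPM of replicate 1, against 1.28 and 1.05 times in P1 and P2. CCN1 was 3.10-fold lower in P3 (log2 fold change -1.63, standard error 0.36) and 1.83-fold lower in P4 (-0.87, standard error 0.35) than in P1 and P2 together.

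CCN2 (ENSG00000118523, chromosome 6, 131948176 to 131951373) had 229 and 286 TPM in P1, 188 and 185 TPM in P2, 56.45 and 85.0 TPM in P3, and 70.3 and 144 TPM in P4. Again no P3 or P4 sample reached a P1 or P2 sample. On the CPM scale the P3 samples were close together (135 and 143) and the P4 samples were not (144 and 242). The log2 fold change was -1.48 (standard error 0.24) in P3 and -1.01 (standard error 0.23) in P4. By quantitative PCR the study reported CCN2 (CTGF) mRNA as higher in P4 than in P1, the opposite direction. In P4 it also reported a more active YAP reporter, more YAP1 protein with less of it phosphorylated, and lower CTGF after depletion of YAP1, TAZ or TEAD4. From RNA sequencing it reported Hippo signalling gene sets as enriched in P1 and P2. The cause of the difference between the PCR and sequencing results for CCN2 was not tested. An exon of ENSG00000227220 overlaps CCN2 on the opposite strand, and whether the counting used strand is not given in the sources used here.

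**Figure D2:**
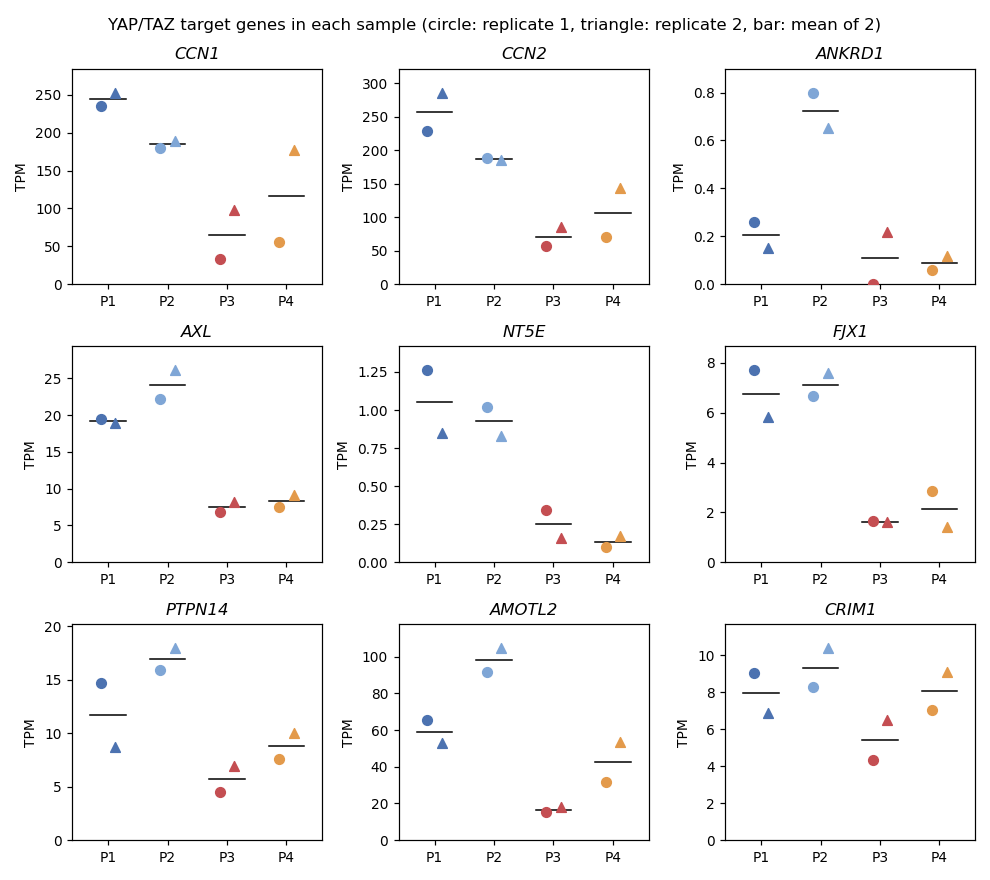
TPM of the 9 YAP/TAZ target genes in each sample, with 1 panel per gene and a linear axis from 0; circles are replicate 1, triangles replicate 2 and bars the mean of the 2 samples of a line. CCN1, CCN2, AXL, NT5E and FJX1 are lower in all 4 P3 and P4 samples than in any P1 or P2 sample, while PTPN14, AMOTL2, CRIM1 and ANKRD1 overlap on this scale.

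AXL, NT5E and CRIM1 are proteins of the cell surface, and FJX1 is the human four-jointed homologue, a secreted regulator of growth. AXL, a receptor tyrosine kinase for GAS6 (ENSG00000167601, chromosome 19, 41219203 to 41261766), had 19.5 and 19.0 TPM in P1, 22.2 and 26.05 TPM in P2, 6.86 and 8.13 TPM in P3, and 7.52 and 9.12 TPM in P4. The P3 and P4 values interleaved with each other well below all early values. AXL was 2.35-fold lower in P3 and 2.40-fold lower in P4 than in P1 and P2, with log2 fold changes of -1.23 and -1.26 (standard error 0.18 each). Replicates of AXL differed by less than in CCN1, with ratios of 0.787 to 1.17 between the CPM of replicates 2 and 1. AXL shares exon sequence with ENSG00000269652 on the opposite strand.

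NT5E, the 5′-nucleotidase CD73 that makes adenosine (ENSG00000135318, chromosome 6, 85449584 to 85495791), was near 1 TPM in the early lines, with 1.26 and 0.85 TPM in P1 and 1.02 and 0.83 TPM in P2. It had 0.34 and 0.16 TPM in P3 and 0.10 and 0.17 TPM in P4. These low levels rest on 9 to 18 expected counts per sample in P3 and P4, against 59 to 90 in P1 and P2. The groups did not overlap, and the log2 fold changes were -2.02 (standard error 0.38) in P3 and -2.35 (standard error 0.40) in P4.

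FJX1 (ENSG00000179431, chromosome 11, 35618419 to 35620868) had 7.70 and 5.82 TPM in P1, 6.66 and 7.59 TPM in P2, 1.67 and 1.60 TPM in P3, and 2.88 and 1.40 TPM in P4. The P3 and P4 samples overlapped each other and stayed below all early samples. FJX1 was 4.14-fold lower in P3 and 3.15-fold lower in P4 than in the early lines. In both P3 and P4 its CPM was lower in replicate 2 than in replicate 1 (ratios 0.568 and 0.500), the opposite order to CCN1.

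CRIM1, a transmembrane protein that binds bone morphogenetic proteins (ENSG00000150938, chromosome 2, 36355926 to 36551135), differed least among the 9 genes. It had 9.05 and 6.88 TPM in P1, 8.29 and 10.4 TPM in P2, 4.34 and 6.49 TPM in P3, and 7.03 and 9.08 TPM in P4. In TPM the P3 samples were the lowest and the P4 samples lay within the early range. In CPM the early samples ran from 28.6 to 34.2, and the P4 samples, at 37.1 and 25.9, lay on either side of them, replicate 2 level with the P3 samples at 26.8 and 25.8. Its log2 fold change was -0.26 (standard error 0.19) in P3 and 0.00 (95% interval -0.40 to 0.41) in P4. CRIM1 has an overlapping exon of ENSG00000273090 on the opposite strand.

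ANKRD1, a nuclear ankyrin-repeat cofactor known from heart muscle (ENSG00000148677, chromosome 10, 90912096 to 90921276), was barely detected in these cells. It had 0.26 and 0.15 TPM in P1, 0.80 and 0.65 TPM in P2, 0 and 0.22 TPM in P3, and 0.06 and 0.12 TPM in P4. The P3 replicate with a value lay within the P1 range, so the groups overlapped, and P2 was the only line above the others. The values stand for 0 to 11 counts in P3 and P4 and 8 to 45 counts in P1 and P2, and ANKRD1 passed the filter on low counts through its early samples, since only 1 of 4 late samples was above the filter's level of 0.293 CPM. Its log2 fold changes of -1.80 in P3 and -2.02 in P4 had standard errors of 0.78 and 0.82.

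PTPN14 and AMOTL2 are targets that also act on the pathway, since the phosphatase PTPN14 and the angiomotin-like protein AMOTL2 both bind YAP and restrain it. AMOTL2 (ENSG00000114019, chromosome 3, 134355874 to 134375479) had 65.4 and 52.85 TPM in P1, 91.6 and 105 TPM in P2, 15.1 and 18.1 TPM in P3, and 31.8 and 53.4 TPM in P4. The P3 samples were the lowest of all, and the P4 samples came next, with replicate 2 of P4 level with the lower P1 sample. On the CPM scale the same 2 samples were apart, at 143 and 192 CPM. The log2 fold change was -1.98 (standard error 0.18) in P3 and -0.88 (standard error 0.17) in P4. The pseudogene RPL39P5 overlaps an AMOTL2 exon on the same strand.

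PTPN14 (ENSG00000152104, chromosome 1, 214348696 to 214552449) had 14.7 and 8.71 TPM in P1, 15.9 and 17.9 TPM in P2, 4.48 and 6.96 TPM in P3, and 7.56 and 10.04 TPM in P4. Replicate 2 of P1 was the low sample of the early lines, and replicate 2 of P4 exceeded it in TPM. In CPM replicate 2 of P1 (96.3) stayed above replicate 2 of P4 (76.8). The log2 fold change was -1.08 (standard error 0.18) in P3 and -0.72 (standard error 0.18) in P4. ENSG00000228470 on the same strand and KRT18P12 on the opposite strand overlap exons of PTPN14.

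As a list, the 9 genes had median log2 fold changes of -1.63 in P3 and -1.01 in P4 against P1 and P2, while the medians over all genes tested were -0.01 and 0.01. On the CPM scale, 8 of 9 had both P3 samples below every P1 and P2 sample (all genes 22.3%), 8 of 9 had both P4 samples below (15.8%), and 7 of 9 had all 4 below (9.19%). On the TPM scale these counts were 8 (23.9%), 6 (15.3%) and 5 (9.13%) of 9. The contrast chose the genes, so nothing is read from these shares.

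**Figure D3:**
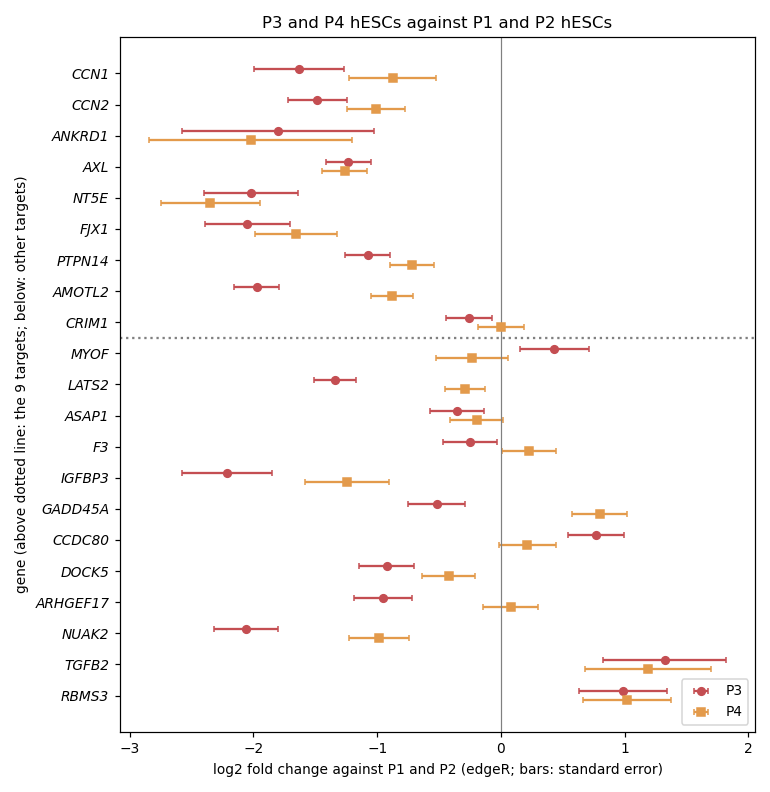
Log2 fold change of P3 (circles) and of P4 (squares) against P1 and P2 for the 9 targets, above the dotted line, and 12 other tested YAP/TAZ targets, below it; bars are standard errors from edgeR. The 9 targets range from -2.05 to -0.26 in P3 and from -2.35 to 0.00 in P4. The other targets, left after the 9 were chosen, lie on both sides of 0.

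P4 against P3 was not itself the contrast that chose the genes, although the levels in P3 and P4 entered that choice. By the thresholds of the study, a change of more than 1 log2 unit with an adjusted p below 0.01, none of the 9 genes passed there in edgeR's quasi-likelihood test (0.554% of all genes were higher and 0.262% lower in P4), and 1 of 9, AMOTL2, had an unadjusted p below 0.05 (all genes 19.2%). AMOTL2 was 2.14-fold higher in P4 than in P3, with a log2 fold change of 1.10 (standard error 0.19, 95% interval 0.68 to 1.51) and an adjusted p of 0.0105 from edgeR with Benjamini-Hochberg adjustment. It was thus called at an adjusted p below 0.05, as were 2.19% of all genes in the higher and 1.12% in the lower direction, and both P4 samples exceeded both P3 samples. DESeq2 called AMOTL2 as higher under the strict thresholds (all genes 2.07%) and no other of the 9 genes. Without replicate 2 of P3 the edgeR adjusted p was 0.052 and without replicate 2 of P4 it was 0.0747, with log2 fold changes of 0.99 and 0.98.

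For the other 8 genes the difference between P4 and P3 did not exceed the spread of the samples by the edgeR test, and the intervals show what size remains possible. CCN1 was 1.69-fold higher in P4, with a log2 fold change of 0.76 and a 95% interval from -0.09 to 1.61 (edgeR adjusted p = 0.32). Without replicate 2 of P4 that value was -0.08, and with no filter on low counts the CCN1 adjusted p in edgeR was 0.0257. CCN2 had 0.47 (interval -0.09 to 1.03, edgeR adjusted p = 0.34), and its samples of P3 and P4 overlapped in TPM, while in CPM replicate 1 of P4 (144) was barely above replicate 2 of P3 (143). PTPN14 had 0.36 (-0.08 to 0.79), FJX1 0.39 (-0.41 to 1.20) and CRIM1 0.26 (-0.21 to 0.73). AXL was the most tightly bounded near 0, at -0.03 (-0.46 to 0.41). NT5E, at -0.33 (-1.33 to 0.67), and ANKRD1, at -0.22 (-2.41 to 1.97), were too low in counts to place.

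**Figure D4:**
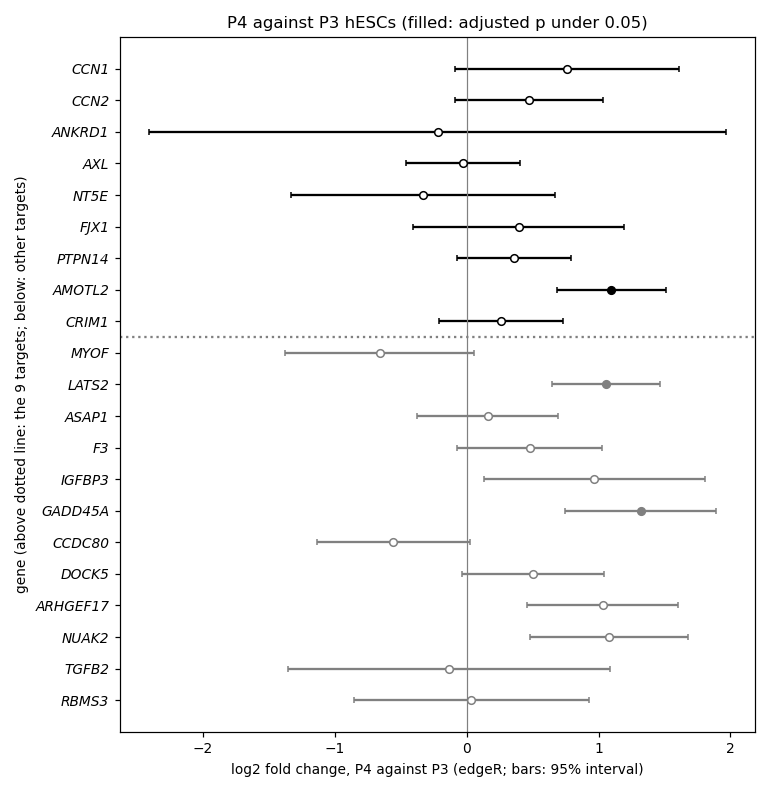
Log2 fold change of P4 against P3 with its 95% interval from edgeR for the 9 targets, above the dotted line, and 12 other tested targets, below it; filled points have an adjusted p below 0.05. Among the 9 targets AMOTL2 is filled, at 1.10, and the intervals of the other 8 include 0.

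P2 was compared with P1 to see how the 9 genes varied between the early lines. None passed the thresholds in edgeR (all genes 0.00% higher and 0.00% lower) or in DESeq2 (0.0667% higher and 0.138% lower), and 3 of 9 had an unadjusted edgeR p below 0.05 (all genes 9.14%). Those were AMOTL2, with a log2 fold change of 0.57 (95% interval 0.15 to 0.98), CCN2, with -0.63 (-1.20 to -0.07), and ANKRD1, with 1.68 (0.02 to 3.34), and their edgeR adjusted p-values were 0.47, 0.51 and 0.54. CCN1 had -0.58 (-1.42 to 0.27). The remaining 5 genes had values between -0.17 and 0.24. By mean CPM, CCN1 and CCN2 were ordered P3, P4, P2, P1 from low to high, and AMOTL2 and PTPN14 P3, P4, P1, P2. These orders describe 2 samples per line, and no step between P2 and P1 passed the thresholds.

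A further 13 genes were examined, of which 12 were tested and FOXF2 was too low. They are the rest of the 22-gene YAP/TAZ target list that also holds the 9 genes. Since the 9 were chosen by their levels in P3 and P4, the values of the remainder against P1 and P2 depend in part on that choice. No conclusion is drawn from how these genes differ from the 9. In P3 against P1 and P2, 3 of 12 fell by both thresholds in edgeR and none rose (all genes 3.23% lower and 2.07% higher). These were LATS2, the Hippo kinase, at 0.39 times the early level (log2 fold change -1.34, standard error 0.17), IGFBP3, which binds insulin-like growth factors (-2.21, standard error 0.36), and NUAK2, a kinase that acts on actomyosin (-2.06, standard error 0.26). NUAK2 had 16.3 and 15.9 TPM in P1, 21.3 and 22.9 TPM in P2, 2.74 and 5.59 TPM in P3, and 6.01 and 12.7 TPM in P4. LATS2 had 8.52 to 13.1 TPM in the early samples, 3.31 and 4.32 TPM in P3, and 7.38 and 9.74 TPM in P4, where it overlapped the early range. ASAP1, a regulator of Arf GTPases, is with NUAK2 the most abundant of the 13, and its log2 fold change in P3 was -0.35 (standard error 0.22). The median of the 12 was -0.44 in P3.

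In P4 against P1 and P2 none of the 12 passed in edgeR (1.55% of all genes were higher and 1.44% lower), 5 had an unadjusted p below 0.05 (all genes 21.1%), and DESeq2 called 1 as lower, IGFBP3 (all genes 2.34%). The median of the 12 was -0.06 in P4. In P4 against P3 none passed both thresholds in edgeR, 5 had an unadjusted p below 0.05 (all genes 19.2%) and DESeq2 called 4 as higher (all genes 2.07%). At an adjusted p below 0.05 edgeR called 2 of 12, both higher in P4 (all genes 2.19%), namely LATS2, with 1.05 (standard error 0.19), and GADD45A, a stress response gene named for this call, with 1.32. In P2 against P1 none was called by edgeR or DESeq2, and 1 had an unadjusted edgeR p below 0.05 (all genes 9.14%).

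The effectors of the pathway were read at the RNA level. None of YAP1, WWTR1 and TEAD1 to TEAD4 passed the thresholds in any of the 4 comparisons between lines, in edgeR or DESeq2. Unadjusted edgeR p-values were below 0.05 for 3 of 6 in P3 (all genes 33.8%) and 2 of 6 in P4 (21.1%) against P1 and P2, for 1 of 6 in P4 against P3 (19.2%) and for 0 of 6 in P2 against P1 (9.14%). YAP1 RNA, named here for its place in the pathway, ranged from 29.5 to 49.6 TPM in the early samples, and stood at 39.75 and 60.2 TPM in P3 and 37.2 and 44.5 TPM in P4. Its change was 0.70 (standard error 0.19, edgeR adjusted p = 0.028) in P3 and -0.01 (standard error 0.20, edgeR adjusted p = 0.99) in P4. TEAD2 and TEAD4, the most abundant effectors, had 0.32 and 0.39 in P3 and -0.07 and 0.56 in P4. TEAD1 and TEAD3, named as the other effectors with an unadjusted p below 0.05 in P3, were lower there. TEAD1 had -0.70 (standard error 0.24, edgeR adjusted p = 0.066) and TEAD3 -0.60 (standard error 0.17, edgeR adjusted p = 0.034). RNA does not report the protein's level or its place in the cell, which decide the activity of YAP and TAZ.

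CCN1 is also an immediate early gene, a class that serum and handling switch on within minutes, so 12 immediate early genes were set beside the targets. Their summed level was 584 and 498 TPM in P1, 775 and 835 TPM in P2, 125 and 345 TPM in P3, and 199 and 747 TPM in P4. As with CCN1, replicate 2 was the higher sample in both P3 and P4. FOS, singled out after its values were seen, had 11.1 and 111 TPM in P3 and 9.93 and 241 TPM in P4, against 72.5 to 163 TPM in the early samples. EGR1 had 7.05 and 60.8 TPM in P3 and 5.77 and 69.8 TPM in P4, against 166 to 199 TPM. In edgeR 5 of 12 fell in P3 against P1 and P2 (JUNB, EGR3, ATF3, IER2 and IER3, all genes 3.23%) and 1, EGR3, in P4 (all genes 1.44%), and none rose. In P4 against P3 none passed both thresholds, 7 had an unadjusted p below 0.05 (all genes 19.2%) and DESeq2 called 3, all higher (all genes 2.07%). IER2, the most abundant of the 12, was higher by 0.93 on the log2 scale there (standard error 0.21, edgeR adjusted p = 0.031). In P2 against P1 none was called by either tool, and 3 had an unadjusted edgeR p below 0.05 (all genes 9.14%). The mitochondrial share split the replicates of P3 and P4 in the opposite order to CCN1, and the part of either in the CCN1 values was not tested.

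**Figure D5:**
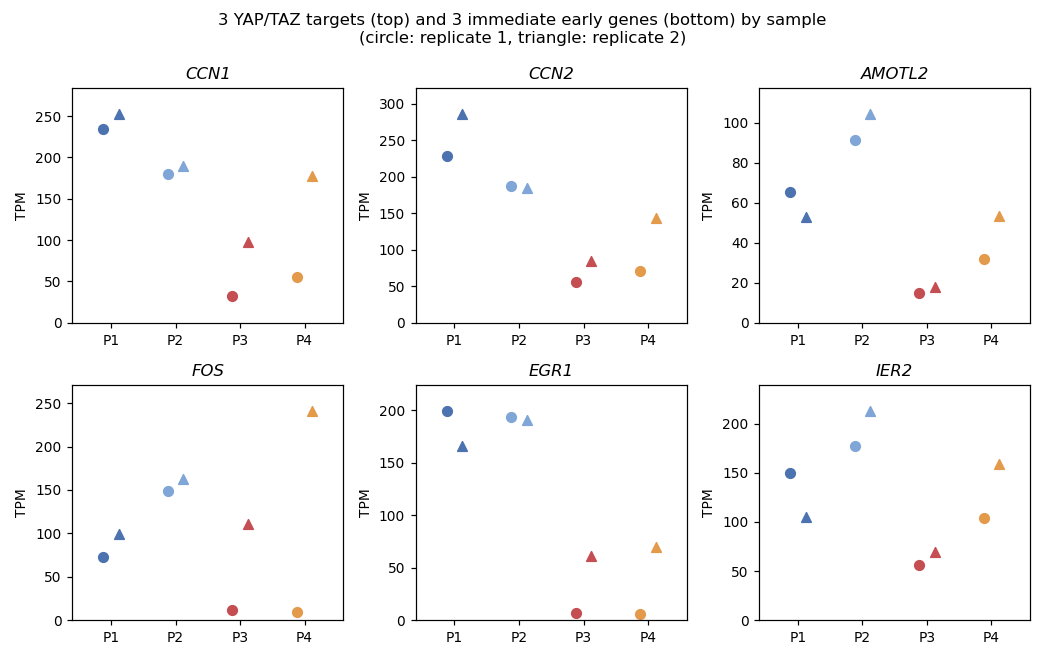
TPM of CCN1, CCN2 and AMOTL2 (top) and of the immediate early genes FOS, EGR1 and IER2 (bottom) in each sample, on linear axes from 0; circles are replicate 1 and triangles replicate 2. In P3 and P4 the replicates of FOS lie at 11.1 and 111 TPM and at 9.93 and 241 TPM, a wider split in the same order as that of CCN1, while AMOTL2 shows 15.1 and 18.1 TPM in P3 and 31.8 and 53.4 TPM in P4.

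Other programmes that share genes or inputs with YAP and TAZ were counted in the same fits. Of 12 targets of serum response factor, which actin dynamics regulate, 2 fell in P3 (ACTA2 and TAGLN, all genes 3.23%) and 2 in P4 (TAGLN and TPM1, all genes 1.44%) against P1 and P2, and none rose. TAGLN, an actin-binding protein of smooth muscle, had log2 fold changes of -1.33 (standard error 0.20) in P3 and -1.86 (standard error 0.21) in P4, and TPM1, a tropomyosin, had -0.86 and -1.25. FLNA, a filamin and with TPM1 the most abundant of the list, had -0.26 and -0.45 and did not pass. None of the 12 passed in P4 against P3 or in P2 against P1 in edgeR or DESeq2, with 2 (all genes 19.2%) and 5 (9.14%) genes at an unadjusted edgeR p below 0.05. Of the 8 targets of TGF-beta signalling, 1 fell in P4 in edgeR (all genes 1.44%), namely LTBP2, a matrix protein (-1.70, standard error 0.32). In P3 LTBP2 had -1.25 (standard error 0.31, edgeR adjusted p = 0.018) and did not pass. The abundant TGIF1 and SKIL had values between -0.07 and 0.31. In P4 against P3 edgeR called none of the 8 genes of that list, with 1 at an unadjusted p below 0.05 (all genes 19.2%), which DESeq2 called as higher (2.07%).

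Markers of cells that a stem cell culture could also hold were checked because CCN1, CCN2, AXL and NT5E are abundant in them. Summed levels of 10 mesenchymal markers were 463 to 632 TPM in P1 and P2 and 495 to 780 TPM in P3 and P4, and 5 of the 10 were under 1 TPM in every sample. THY1, which pluripotent cells also express, made up much of that sum, and the other 9 summed to 148 to 231 TPM in P1 and P2 and 88.5 to 132 TPM in P3 and P4. COL1A1 had 92.8 to 150.5 TPM in the early and 51.3 to 64.1 TPM in the late samples, with edgeR adjusted p-values of 0.19 in P3 and 0.22 in P4. POSTN, 1 of 6 mesenchymal markers tested, was called higher in P3 (log2 fold change 1.64, edgeR adjusted p = 0.0096, all genes 2.07%). PDGFRB was lower there, at -0.93 (edgeR adjusted p = 0.018), and was not called. Summed levels of 10 amnion and trophectoderm markers were 30.8 to 42.2 TPM in P1 and P2 and 14.8 to 21.9 TPM in P3 and P4, and 5 of the 10 were under 1 TPM in every sample. The 8 endoderm markers summed to 9.02 to 11.4 TPM in P1 and P2, 16.1 and 16.5 TPM in P3, and 9.08 and 9.48 TPM in P4. That sum joins genes that differed in opposite directions. In P3 edgeR called FOXA2 higher (log2 fold change 3.10, all genes 2.07%) and EOMES lower (-3.99, all genes 3.23%). Of the 7 endoderm markers tested, 4 had a fitted difference above 0 in P3 and 3 in P4. No marker of the 3 lists was at 0 in every sample. IGFBP3 is in both the amnion list and the list of further targets, and the other 9 amnion and trophectoderm markers summed to 17.3 to 26.3 TPM in P1 and P2 and 9.17 to 16.8 TPM in P3 and P4. Of the 8 amnion and trophectoderm markers tested, 1 had a fitted difference above 0 in P3 and 3 in P4. Of the 6 mesenchymal markers tested, 2 had a fitted difference above 0 in P3 and 4 in P4. Summed amnion and trophectoderm markers were thus lower in the same lines as the targets. The mesenchymal sum was lower there without THY1 but not with it. The part of these markers in the values of the targets was not tested.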

How the data were processed

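Stranded mRNA libraries of the 8 samples were sequenced by the authors. The submitters' processing notes name FastQC, Trim Galore, STAR 2.7.3a, RSEM 1.3.3 and GRCh38, while the annotation and the strand setting are not given in the sources used here. The authors deposited, per gene and sample, an RSEM expected count (not normalized, here rounded) and a TPM value (scaled for gene length and library size). Samples were grouped by the line in their titles. Genes were filtered by filterByExpr over the 4 lines, TMM-normalized and fitted with edgeR 4.0.16 (R 4.3.3), a quasi-likelihood model with 4 groups of 2 and Benjamini-Hochberg adjustment over 19499 genes. The standard error is the log2 fold change over the square root of F, and CPM uses TMM factors. DESeq2 1.42.0 and limma 3.58.1 on log2(TPM + 1) and log2(TPM + 0.1) were alternatives, as were no filter, a replicate block, leaving out mitochondrial genes or each replicate, and fits of only 4 samples. The method was tested on simulated data.

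The members, gene lists and tests were chosen with earlier results of these data known. Named were the 9 targets and the 5 genes nearest in profile. The rule also covered the lists of further targets, effectors, immediate early genes and targets of serum response factor and TGF-beta. Of these lists it named any gene called in P3 or P4 against P1 and P2 or in P4 against P3. It also named the 2 most abundant genes of each. Others are marked in the text. The rule did not cover the cell type markers, so a marker that is not named may also have been called. Symbols matched 56558 identifiers. Positions are from GENCODE 29 and promoter windows from RefSeq, which gave 9 windows for 7 of the 9 targets (CCN1 and CRIM1 are named only). Part of the results of the TGF-beta list is not reported here.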

Additional observations from a re-analysis of the deposited data

Results flagged for a closer look

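Among the 9 targets, the samples of P1 and P2 (4) and of P3 and P4 (4) were checked for 1 sample far from the other 3. The measure was its gap to the nearest divided by the range, in log2 CPM. Of 18 such groups 3 held one. For 4 samples of 1 kind chance gives about 1 in 20, or 0.9, but each group here pools 2 lines. In CCN2 the gap of replicate 2 of P4 was 0.894 of the range, and in CRIM1 that of replicate 1 of P4 was 0.895, both on the high side. In PTPN14 replicate 2 of P1 stood below the other early samples with a gap of 0.934 of the range.

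The changes of AMOTL2 from the early lines differed between P4 and P3 by 1.10 on the log2 scale in the direct edgeR test of the difference, with an adjusted p of 0.0105 over all genes. Both P4 samples were above both P3 samples.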

How the results depend on the processing

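With P4 against P3, the count of the 9 targets called moved from 0 to 1 (AMOTL2) with DESeq2, with no filter, with mitochondrial genes left out and at an adjusted p below 0.05. With no filter CCN1 also had an adjusted p of 0.0257 there. AMOTL2 kept its direction under all alternatives, at 0.98 to 1.31, with adjusted p from 9.6e-06 to 0.0747. Of the 12 other targets, the count called moved in P3 from 3 to 6 at an adjusted p below 0.05. Of these, 5 were lower (all genes 9.52%) and 1 was higher (8.09%). In P4 the count moved from 0 to 1 with DESeq2, with no filter and with the replicate block. At an adjusted p below 0.05 it moved to 3, with 2 lower and 1 higher (all genes 3.55% each way). In P4 against P3 it moved from 0 to 4 with DESeq2 and with no filter, and to 2 at an adjusted p below 0.05. The median of the 9 targets in P3 was -1.41 with log2(TPM + 1) and -1.69 to -1.41 with a replicate left out, the upper end without replicate 1 of P3. In P4 it was -1.24 to -0.77, the ends being without replicates 2 and 1 of P4.

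The sign of P4 against P3 turned for ANKRD1 (0.0688 with log2(TPM + 0.1)) and AXL (0.13 and 0.15 with the pseudocounts 1 and 0.1), and that of P2 against P1 for NT5E (-0.0888 and -0.155) and CRIM1 (0.21 and 0.23), under the same pseudocounts. On those scales the median of all genes was itself shifted, by -0.14 and -0.22 in P3 against P1 and P2, 0.10 and 0.15 in P4 against P3 and 0.13 and 0.19 in P2 against P1. With a replicate left out, P4 against P3 ranged from -0.0795 to 1.36 for CCN1, -1.16 to 5.22 for ANKRD1 (the upper end against a library with 0 counts), -0.20 to 0.15 for AXL, -0.19 to 0.85 for FJX1 and -0.0267 to 0.49 for CRIM1. P2 against P1 ranged from -0.0677 to 0.13 for AXL and -0.0562 to 0.27 for FJX1. None of these values passed the test, and the cause was not tested.

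Replicate numbers were not used as pairs in the main fits. Replicate differences of 2 lines correlated across genes with r from -0.09 to 0.14, the highest between P3 and P4. A correlation over all genes cannot exclude that some samples are paired. The replicate block changed no call of the 9 targets between P4 and P3 or P2 and P1 (AMOTL2 1.10, adjusted p = 0.0142). Calls over all genes in P4 against P3 numbered 159 in edgeR, 599 in DESeq2, 900 with no filter and 74 and 87 on the TPM scales, and in P2 against P1 0, 40, 273, 1 and 0, with 35 from their 4 samples alone. With 2 samples per line and a few counts in some samples, ANKRD1 and NT5E allow no statement finer than their intervals.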

Other observations

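The 5 genes whose centred log2 CPM over the 8 samples lay nearest to the mean profile of the 9 targets were NPAS2, GOLGA8K, TNFAIP3, VEGFA and GPR199P. Their root mean square distances were 0.128 to 0.177, against a median of 0.771 over all genes tested. VEGFA, the angiogenic growth factor, had 81.3 to 105 CPM in P1 and P2, 23.0 and 33.9 CPM in P3, and 44.8 and 46.3 CPM in P4. TNFAIP3, a ubiquitin-editing inhibitor of NF-kappaB, had 6.59 to 9.47 CPM in the early samples, 2.24 and 3.12 CPM in P3, and 2.82 and 4.58 CPM in P4. NPAS2, a circadian transcription factor, had 3.56 to 4.18 CPM, then 1.11 and 1.56 CPM and 1.37 and 1.82 CPM. GOLGA8K belongs to a family of near-identical copies and GPR199P is a pseudogene, so their counts, near 1 CPM or below, are uncertain. The ranking describes these 8 samples.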
